A study of Arabidopsis thaliana with 12 samples.

Results

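AT4G01310, AT3G54210 and AT5G65220 encode the plastid ribosomal proteins L5, L17 and L29 of Arabidopsis thaliana. They were the 3 plastid ribosomal protein genes that could be compared between the prors2 mutant and wild type. The members were taken as the probes that the platform annotation assigns to 1 of these genes and to no other. Each gene had 1 such probe among 3439 probes, of which 692 list a single gene, and no probe that lists several genes held any of the 3. Transcript levels were measured by array from total RNA in 6 samples titled WT2_dark and 6 titled prors2_dark. Both groups are of ecotype Columbia 0 and were kept in the dark overnight, and the mutant is described as without prolyl-tRNA synthetase, which charges tRNA with proline. The labels used here state no allele, age, tissue or number of plants per sample, and do not explain the 2 in WT2. The source label reads wild type for all 12 samples, so the groups rest on the sample titles.

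Plastids translate their own mRNAs on bacterial-type ribosomes, which make core subunits of the photosystems and of Rubisco. Part of the ribosome's proteins is encoded in the plastid genome and the rest in the nucleus, so the nuclear-encoded ones are made in the cytosol and imported. L5, L17 and L29 all belong to the large subunit. In bacteria L5 binds the 5S rRNA, while L17 and L29 sit near the exit of the tunnel through which the new protein leaves. Plastid protein synthesis also needs charged tRNAs, which in plants come from nuclear-encoded synthetases that are imported too.

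The deposited values are intensities in arbitrary units, from 0 to a shared ceiling of about 100. The arrays as a whole were not alike in the 2 groups. The median probe lay between 0.0620 and 0.0852 in wild type and between 0.240 and 0.403 in prors2, and 746 to 926 probes were at 0 in a wild-type sample against 431 to 609 in a prors2 sample. A difference therefore depends on the scale, and each gene is given on 3: the intensity as deposited, the probe's percentile among the 3439 probes of its sample, which no monotone rescaling of a sample changes, and log2 intensity after quantile normalisation of all samples. Neighbouring sample numbers went together (1 with 2, 3 with 4, 5 with 6). The correlation of normalised log2 values over features was 0.948 to 0.974 for such neighbours and 0.823 to 0.892 for other sample pairs in prors2, and 0.870 to 0.882 against 0.828 to 0.871 in wild type. Whether they share an RNA is not stated, so p-values over 6 against 6 samples rest on a spread that may be partly technical, and are too small if they do. Tests with the pairs averaged stand beside them. PRORS1 (AT5G52520), annotated as prolyl-tRNA synthetase 1, has no probe of its own, so the genotype could not be checked on it. None of 19 marker genes for leaf, root, phloem, pollen and flower cells had one either, so the tissue was not checked. Fewer cells of a type and less RNA per cell cannot be told apart in such samples.

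L5 moved in opposite directions on the deposited and on the relative scale. Its deposited intensity was 0.162, 0.246, 0.190, 0.267, 0.155 and 0.177 in wild-type samples 1 to 6. In prors2 samples 1 to 6 it was 0.352, 0.410, 0.323, 0.324, 0.420 and 0.445. Every prors2 sample was above every wild-type sample, as for 45.7% of all probes. The means (± SD, n = 6 each) were 0.199 ± 0.0462 for wild type and 0.379 ± 0.0527 for the mutant, a ratio of 1.90. The exact permutation p was 0.00216, the smallest that 6 against 6 samples can give (2-sided; 0.00449 after Benjamini-Hochberg adjustment over all 3439 probes). On this measure 59.1% of all probes passed as higher in prors2.

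**Figure D1:**
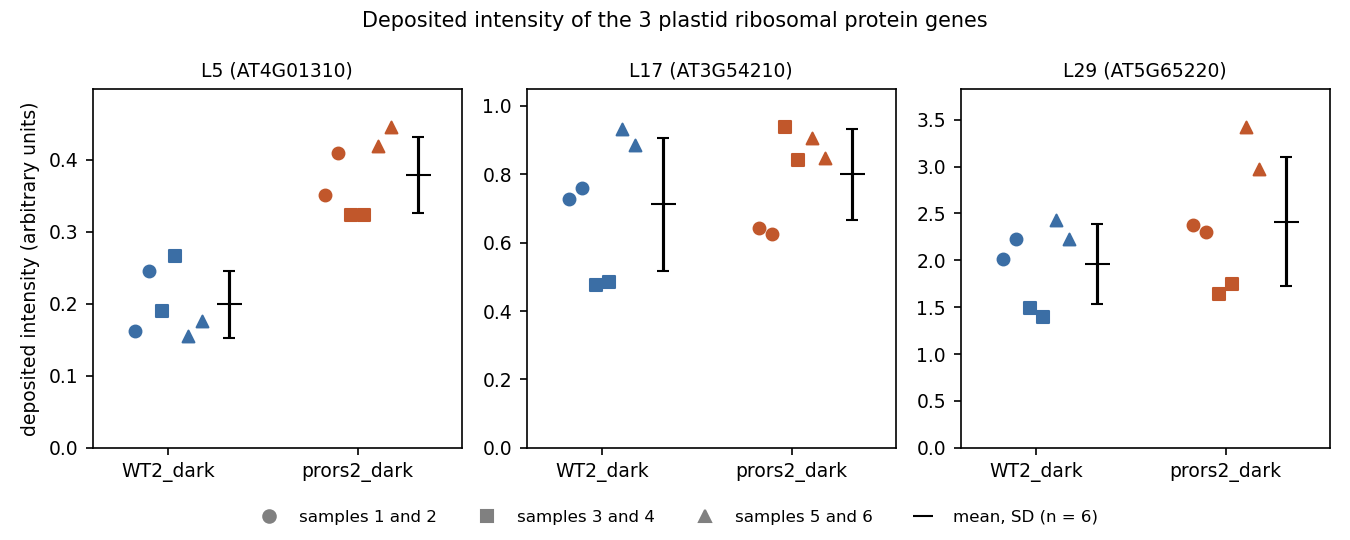
Deposited intensity in arbitrary units (vertical axes, each starting at 0) of L5, L17 and L29 in the 6 WT2_dark and 6 prors2_dark samples, with marker shapes for consecutively numbered samples and the mean with its SD (n = 6). All prors2 values of L5, from 0.323 to 0.445, lie above the wild-type values, from 0.155 to 0.267, while the groups overlap for L17 and L29.

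Within its own array, L5 stood lower in the mutant. Its percentile was 65.6, 73.6, 71.9, 77.2, 63.6 and 66.0 in wild-type samples 1 to 6, and 45.6, 51.9, 60.6, 60.2, 55.5 and 57.4 in prors2 samples 1 to 6. The groups again did not overlap, and 22.8% of all probes were lower without overlap. The mean percentile (± SD, n = 6 each) was 69.7 ± 5.38 for wild type and 55.2 ± 5.70 for the mutant, a difference of -14.5 points (exact permutation p = 0.00216, 2-sided; 0.00619 adjusted over all probes). Here 32.5% of all probes passed as lower. Against the median probe of its sample, L5 stood at 1.85 to 4.13 times in wild type and at 0.874 to 1.35 times in prors2. All 3 genes were lower on this ratio without overlap, as were 26.5% of all probes. That share takes no account of brightness. With samples centred on their median, 75.4% of the brightest of 4 equal classes of tested features passed as lower (limma, adjusted p under 0.05). That class holds L17 and L29. In the class of L5, next in brightness, 34% passed as lower.

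L5 was thus higher in deposited intensity and lower in percentile, both without overlap between the groups. Both held for 37 of the 3439 probes (1.08%), 6 of them with a single gene. This combination was singled out after the values of L5 had been seen. The lower percentile was measured against arrays with fewer probes at 0 in prors2. Ranked among only the 1940 probes above 0 in all 12 samples, L5 lay at 38.0 to 60.7 in wild type and at 23.97 to 39.6 in prors2, so the ranges then overlapped (difference -13.7 points, exact permutation p = 0.00649). With pairs averaged, the 3 values of each group still did not overlap for intensity (0.166 to 0.229 against 0.323 to 0.432) or percentile (64.8 to 74.6 against 48.8 to 60.4). Their exact permutation p was 0.1, the smallest that 3 against 3 values can give.

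In percentile, L17 held its place in wild type and was spread widely in the mutant. Its percentile was 88.2, 88.4, 85.2, 85.4, 89.7 and 89.3 in wild-type samples 1 to 6. In prors2 samples 1 to 6 it was 68.3, 67.9, 88.4, 86.7, 82.7 and 81.3. Samples 3 and 4 of the mutant lay within the wild-type range and the other 4 below it. The means were 87.7 ± 1.92 and 79.2 ± 8.97 (SD, n = 6 each; exact permutation p = 0.0346, 2-sided, and 0.0635 after adjustment over all probes), so the fall did not pass once adjusted. With pairs averaged the exact permutation p was 0.2.

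The deposited intensity of L17 overlapped between the groups, and its SD was larger in wild type than in prors2. It was 0.729, 0.760, 0.476, 0.485, 0.934 and 0.887 in wild-type samples 1 to 6 and 0.643, 0.624, 0.937, 0.841, 0.907 and 0.848 in prors2 samples 1 to 6. Samples 3 and 4 were the lowest of the wild-type samples and samples 1 and 2 the lowest of prors2. The means were 0.712 ± 0.195 and 0.8001 ± 0.134 (SD, n = 6 each; exact permutation p = 0.374, and 0.7 with pairs averaged). Against the median probe of its sample, L17 stood at 7.51 to 11.2 times in wild type and at 1.60 to 3.91 times in prors2.

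**Figure D2:**
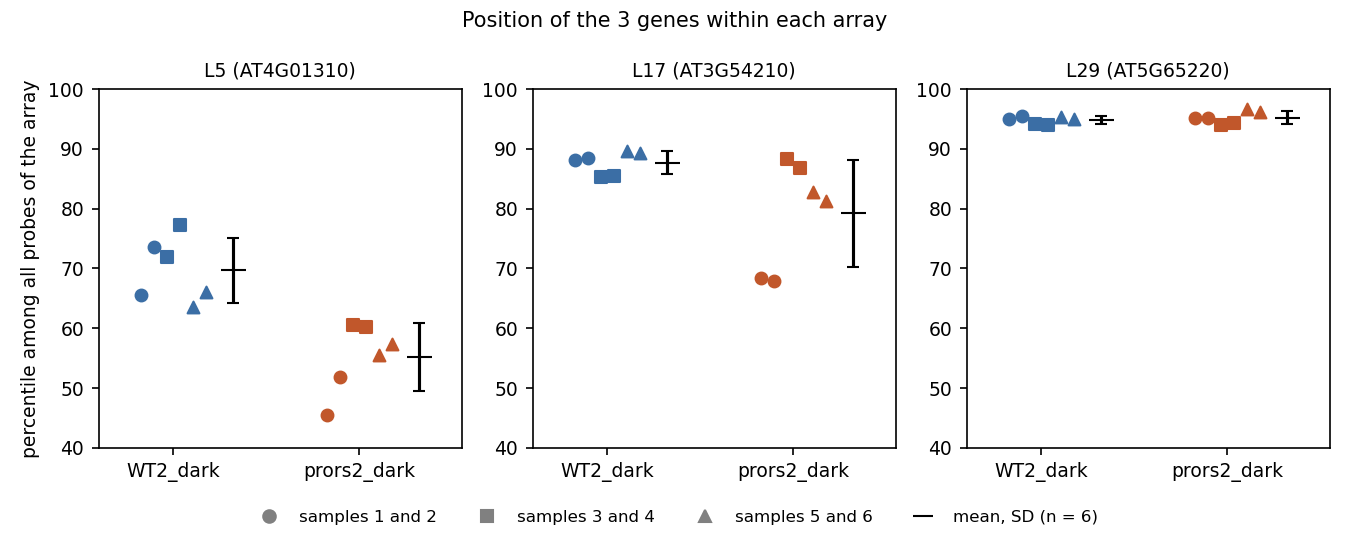
Percentile of each gene's probe among all probes of its sample (vertical axis, 40 to 100), by group, with marker shapes for consecutively numbered samples and the mean with its SD (n = 6). L5 lies lower in all prors2 samples (45.6 to 60.6) than in wild type (63.6 to 77.2), L17 spreads from 67.9 to 88.4 in prors2, and L29 stays between 93.9 and 96.6 in all 12 samples.

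L29 was among the brightest probes of every array, where the percentile has little room to move. Its percentile ran from 93.9 to 95.4 in wild type (median 95.03) and from 93.9 to 96.6 in prors2 (median 95.2). The groups overlapped, with a difference of 0.402 points (exact permutation p = 0.444, and 0.5 with pairs averaged). That difference was 0.1202 to 0.661 with 1 sample left out, lowest without prors2 sample 5 and highest without prors2 sample 3. Its deposited intensity was 2.01, 2.22, 1.49, 1.396, 2.43 and 2.22 in wild-type samples 1 to 6. In prors2 samples 1 to 6 it was 2.37, 2.30, 1.64, 1.75, 3.42 and 2.98. Samples 3 and 4 were the lowest and sample 5 the highest in both groups. The means were 1.96 ± 0.424 and 2.41 ± 0.689 (SD, n = 6 each; exact permutation p = 0.210, and 0.4 with pairs averaged). Against the median probe of its sample, L29 stood at 21.6 to 29.1 times in wild type and at 5.89 to 9.45 times in prors2, without overlap. The median probe itself was higher in prors2, while the mean intensity of L29 was not lower there. On this ratio 26.5% of all probes were lower without overlap.

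The fit across all features, in which values at 0 were missing and log2 values were quantile-normalised, called 1 of the 3 genes lower and none higher. It called 20.6% of 2684 tested features lower and 45.6% in either direction (limma, adjusted p under 0.05), so 1 call among 3 genes lies near the background. L5 had a log2 difference (prors2 minus wild type) of -0.56 with a standard error of 0.18 and a 95% interval from -0.96 to -0.16 (limma, adjusted p = 0.0248), a ratio of 0.678. L17 had -0.52, with an interval from -1.12 to 0.072 (adjusted p = 0.135). L29 had 0.34, with an interval from -0.098 to 0.79 (adjusted p = 0.184). The intervals of L17 and L29 include 0, but also a fall of L17 as large as that of L5 and a rise of L29 larger than its estimate. The median of the 3 genes was -0.52, and that of all tested features 0.094. With pairs averaged none of the 3 passed, where 20.9% of 2459 features did. The adjusted p of L5 was 0.214 with pairs averaged and 0.152 with pairs as a random block. It also moved above the threshold without wild-type sample 2 (0.0516) or wild-type sample 4 (0.0525).

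The direction of all 3 genes depended on the scaling, and so did the calls as a whole. Without normalisation the median feature differed by 1.49 on the log2 scale and 69.6% of features passed as higher. L5 then differed by 0.94 (limma, adjusted p = 4.73e-04, and 0.0228 with pairs averaged), L17 by 0.20 (adjusted p = 0.407) and L29 by 0.28 (adjusted p = 0.274). With each sample centred on its median, 33.7% of features passed as lower and all 3 genes were among them, L5 at -0.64, L17 at -1.39 and L29 at -1.31. With the 75th percentile as the centre L5 stood at 0.041 (adjusted p = 0.857), L17 at -0.70 (0.0195) and L29 at -0.63 (0.00900), where the median feature was at 0.59. In this scaling 19.4% of features passed as lower. In the brightest of the 4 classes, which holds L17 and L29, the median was -0.56 and 52.2% passed as lower. Of all called features, 54.8% were higher after quantile normalisation, 41.9% with median centring, 69.0% with 75th percentile centring and 92.8% as deposited.

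Relative to the median feature, L5 was lower in each of the 7 scalings tried, with log2 differences of -0.69 to -0.47. The deposited scale and the 2 centrings differ only by a constant per sample, so this value is nearly the same on them by construction. Of the other 4, 3 are forms of quantile normalisation, so the 7 are not independent checks. L17 was also below the median feature in all 7, from -0.38 with cyclic loess to -1.29 as deposited and with either centring. In the main fit, 26.6% of tested features had a lower difference than L5 and 27.7% a lower one than L17. L29 was not on one side. It lay 0.23 to 0.25 above the median feature in the 4 scalings that match distributions or trends, and below it, at -1.22 to -1.21, in the 3 others. The bright probes as a class moved this way too. Tested features were divided into 4 equal classes of brightness. In the brightest class, which holds L17 and L29, the median difference with median centring was -1.24 and 75.4% of features passed as lower. There L17 stood at -1.39 and L29 at -1.31, near that class median. In the class below it, which holds L5, that median was -0.145 and 34% passed as lower. The part of this class-wide shift in the values of the 3 genes was not tested.

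**Figure D3:**
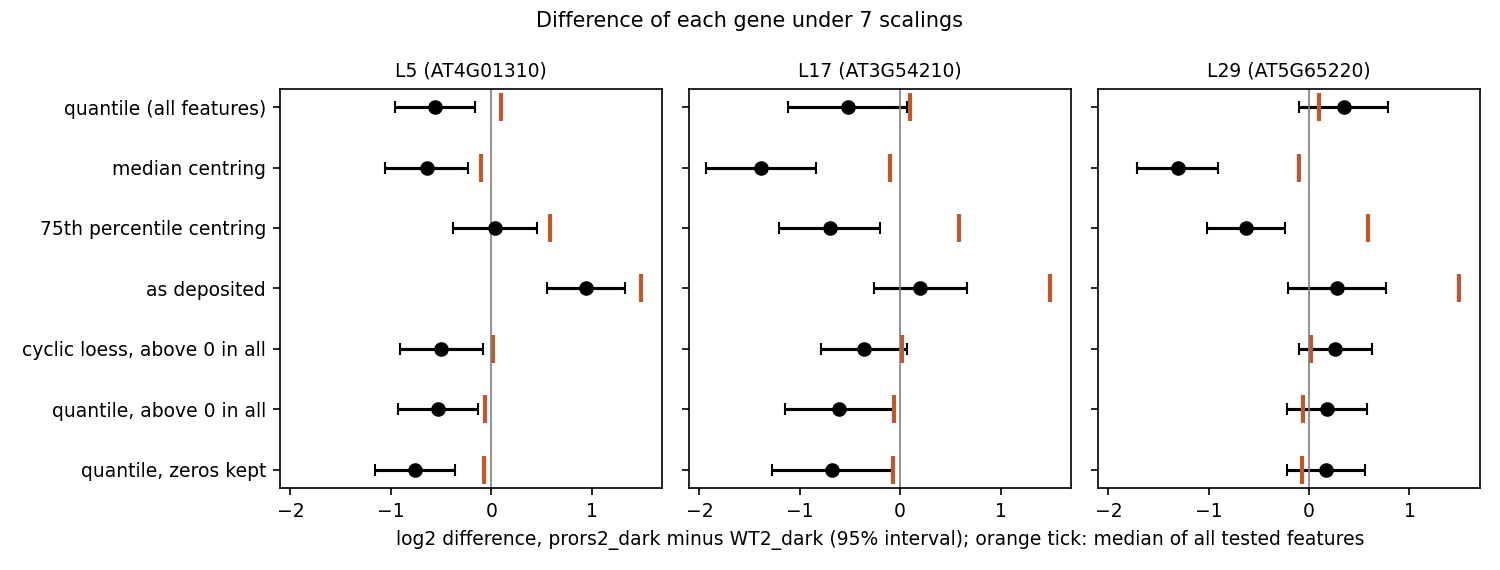
Log2 difference (prors2_dark minus WT2_dark, horizontal axis) of each gene with its 95% interval from limma under 7 scalings (rows), with orange ticks for the median of all tested features. L5 changes sign between quantile normalisation (-0.56) and the deposited scale (0.94) but lies left of the orange tick in every row, and L29 crosses it.

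L17 and L29 varied more between sets of consecutive samples than within them, in both groups. On the normalised log2 scale the 2 samples of a set differed by 0.0214 to 0.193 for L17, and the means of the 3 sets spanned 0.573 in wild type and 1.37 in prors2. For L29 the gaps within sets were 0.0240 to 0.198 and the set means spanned 0.420 and 0.880. For L5 the gaps reached 0.470 in wild type, about the span of its set means there (0.472). Compared within equal numbers on this scale, L5 was lower in prors2 in all 3 sets, by -0.87, -0.60 and -0.21 for numbers 1 and 2, 3 and 4, and 5 and 6. None of these passed (limma, adjusted p = 0.0565, 0.0757 and 0.265). L29 was higher in all 3, by 0.18, 0.20 and 0.66 (adjusted p = 0.303, 0.286 and 0.0366). The share of all features with the same direction in all 3 sets was not determined. L17 was at -1.36 and -0.61 for numbers 1 and 2 and 5 and 6, but at 0.40 for 3 and 4. Without numbers 3 and 4, L17 passed as lower (-0.99, limma, adjusted p = 0.0209), as did 19.7% of tested features. Without numbers 1 and 2 its difference was -0.11 (adjusted p = 0.741).

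**Figure D4:**
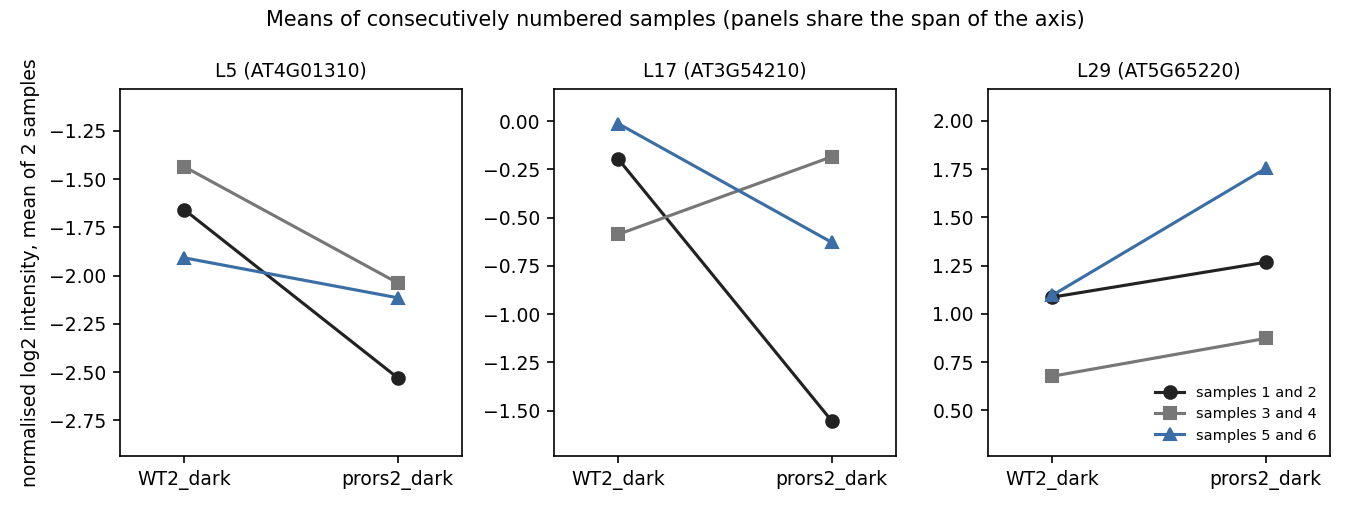
Normalised log2 intensity (vertical axes of equal span), as the mean of 2 consecutively numbered samples, in WT2_dark and prors2_dark. Lines join sets of equal number, which the labels do not describe as matched, and run downward in all 3 sets for L5, upward in all 3 for L29, and downward in 2 sets but upward in the set of samples 3 and 4 for L17.

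Ratios between the 3 genes within a sample are free of any common factor for that sample, but not of a shift that depends on brightness. As deposited, the median log2 difference was 1.44 in the brightness class of L5 and 0.342 in that of L17 and L29. The part of this shift in the ratios to L5 was not tested. The log2 ratio of L29 to L5 (mean ± SD, n = 6 each) was 3.30 ± 0.574 for wild type and 2.63 ± 0.254 for the mutant, with overlapping ranges of 2.39 to 3.97 and 2.35 to 3.03. The log2 ratio of L17 to L5 was 1.82 ± 0.660 and 1.07 ± 0.342, also with overlap. The log2 ratio of L29 to L17 was 1.48 ± 0.117 in wild type, within 1.33 and 1.65. In prors2 it was 1.56 ± 0.492, within 0.81 and 1.91, a range that encloses that of wild type. The prors2 set means lay on both sides of the wild-type range, at 1.88, 0.934 and 1.86. These ratios were not tested, since the genes were chosen with results known.

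The profiles of the 3 genes over the 12 samples were not closest to each other. Likeness was measured as the root mean square difference of normalised log2 values, each gene centred on its own mean, among 367 other single-gene features above 0 in all samples, which share the same 12 arrays. L5 was nearest to AT3G15140 (0.198), AT4G16410 (0.204) and AT1G22850 (0.207), with L17 at rank 55 (0.423) and L29 at rank 143 (0.627), where the median feature was at 0.714. L17 was nearest to AT2G22890 (0.164), AT1G79480 (0.204) and AT5G19540 (0.227). L29 was nearest to AT3G44020 (0.158), to PRK (0.216), the phosphoribulokinase of the Calvin cycle, and to AT1G73120 (0.221). Of these 9 genes, AT3G15140 (-0.71, limma, adjusted p = 0.00422) and AT4G16410 (-0.72, adjusted p = 0.00288) passed as lower and AT3G44020 as higher (0.48, adjusted p = 0.0431). The other 6, PRK among them (0.062, adjusted p = 0.801), did not pass. Across all tested features 45.6% passed in either direction. The group difference is part of each profile, so near neighbours of a gene lie near its difference by construction.

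Of 41 nuclear loci listed as plastid ribosomal proteins, 35 had no probe of their own and 3 had one that was too often at 0 to be tested. S10 (AT3G13120), a protein of the small subunit, was at 0 in wild-type samples 1 to 5 and at 0.00961 in sample 6. In prors2 samples 1 to 6 it was 0.104, 0.104, 0.0689, 0.125, 0.161 and 0.210, so it was above 0 in all mutant samples. A pattern of this kind, above 0 in all 6 prors2 samples and in at most 1 of wild type, was found in 3% of all probes (103). L34 (AT1G29070), of the large subunit, was at 0 in all wild-type samples and at 0.138, 0.163, 0, 0.0727, 0.126 and 0.264 in prors2 samples 1 to 6. Above 0 in at least 5 prors2 samples and in none of wild type were 1.92% of probes (66).

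S6 (AT1G64510), of the small subunit, was at 0.0464 and 0.0635 in wild-type samples 1 and 2 and at 0 in the other 10 samples. Above 0 in 1 or 2 wild-type samples and in none of prors2 were 4.3% of probes (148). No fold is given for these 3 genes, and no test was made of them. Among 13 loci of plastid translation factors and 10 of ribosome assembly none had a probe of its own. Of 19 organellar aminoacyl-tRNA synthetases 1 had, AT4G33760, the aspartyl enzyme, which was at 0 in all 12 samples, as were 4.59% of probes.

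**Figure D5:**
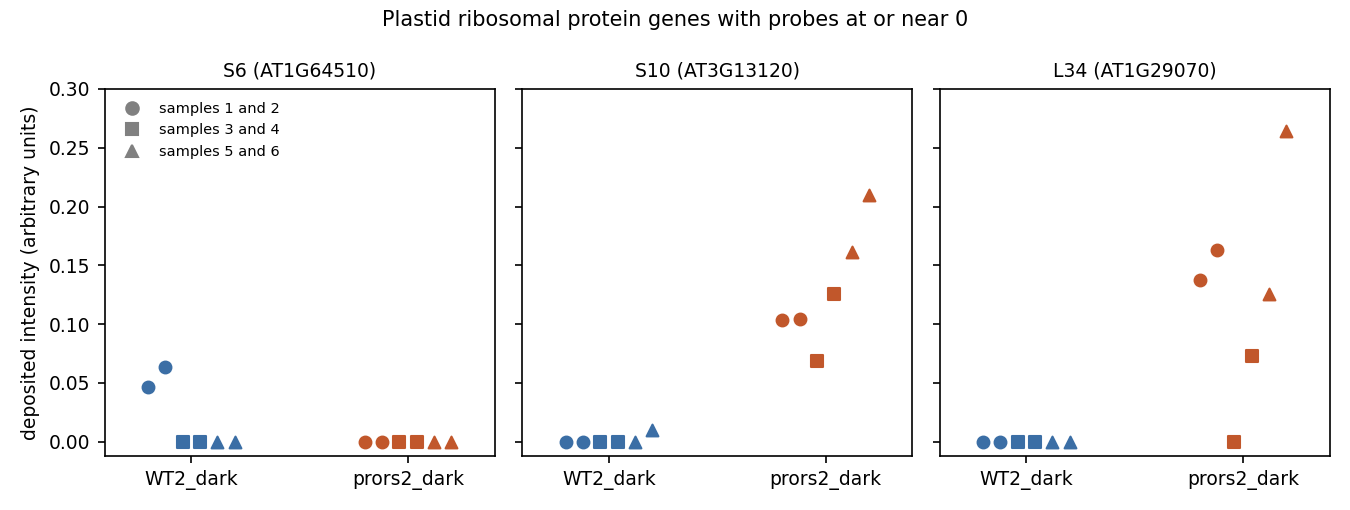
Deposited intensity in arbitrary units (shared vertical axis) of S6, S10 and L34 by group, with marker shapes for consecutively numbered samples. S10 lies between 0.0689 and 0.210 in prors2 and at or near 0 in wild type, L34 is above 0 in 5 prors2 samples, and S6 is above 0 only in wild-type samples 1 and 2.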

How the data were processed

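The authors deposited 1 table of intensities, on a linear scale in arbitrary units, for 3439 probes and 12 samples. The labels and the table record no scanner, background correction or scaling, so those steps are unknown here. Depth has no counterpart for arrays, and the number of arrays limits the precision. Probe genes came from the platform annotation (692 probes with 1 gene, 870 with several, 1877 not listed). Of the 692, 690 matched the TAIR10.1 gene table, which was used for names only.

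Values at 0 were treated as missing, log2 values were quantile-normalised and probes of 1 gene averaged, giving 3438 features. Those with 3 or more values above 0 per group, 2684 in all, were fitted with lmFit and eBayes of limma 3.58.1 (R 4.3.3), 2-sided, with Benjamini-Hochberg adjustment over all of them and a threshold of 0.05. The fit was tested on simulated data. Intensities and percentiles were compared by exact permutation of all 924 splits (Python 3.11.15, numpy 2.4.6), each p adjusted over all 3439 probes. In pair averages a value at 0 was left out, and a feature needed all 3 pair means per group.

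The named genes are the 3 members, all genes of 4 lists with a probe of their own, PRORS1, and the 3 nearest profiles of each member. The members, lists and tests were chosen with earlier results of these data known. The alternatives are given in the closing section. Those for intensities and percentiles, and those joining a scaling with averaged pairs, were added after the values had been seen. Equal numbers in the 2 groups were not taken as pairs in the main fit. Deviations from the group means correlated between equally numbered samples at 0.0535 to 0.164, below 0.1 for numbers 3 and 4. Yet the best match of wild-type samples 2, 4, 5 and 6 was the prors2 sample of equal number. For sample 1 it was number 2, and for sample 3 number 1. With the 3 sets as a fixed block, 1456 features were called, against 1225 in the main fit. Protein and promoter sequences were not used here.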

Additional observations from a re-analysis of the deposited data

Results flagged for a closer look

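S10 and L34 had signal in prors2 but lay outside the tested features, because too few wild-type values were above 0. The mean deposited intensity of S10 (AT3G13120) was 0.129 in prors2 and 0.00160 in wild type, and that of L34 (AT1G29070) was 0.127 in prors2 with all wild-type samples at 0. Both were singled out for signal in the mutant above that of the control samples, and neither difference was tested. Every prors2 sample had fewer probes at 0 (431 to 609) than any wild-type sample (746 to 926), and the part of that in these values was not tested. In the 18 groups of 6 values of L5, L17 and L29 (3 measures, 2 genotypes) no sample lay far from the others by Dixon's criterion. It weighs only a single extreme value, so 2 alike neighbours far from the rest are not flagged. The percentile of L17 in prors2 samples 1 and 2 was 68.3 and 67.9, with the next at 81.3.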

How the results depend on the processing

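The log2 difference of L5 (-0.56) kept its direction in 30 of 33 alternatives and its call in 20. These counts do not measure robustness to scale. Alternatives that changed only the features fitted, the model or the averaging of pairs left it at -0.56 by construction. Their direction could not turn. Those leaving out 1 sample share most of their values with the main fit. The difference of L5 turned with no normalisation, to 0.94 (also with pairs averaged), and with 75th percentile centring, to 0.041. It missed the threshold at the same value with pairs averaged or as a random block, at -0.64 with median centring and pairs averaged, at -0.40 and -0.54 without numbers 1 and 2 or 3 and 4, and at -0.87, -0.60 and -0.21 within the 3 sets. Leaving out 1 sample gave -0.62 to -0.47 (limma, adjusted p from 0.0210 to 0.0525). L17 passed as lower with median centring (-1.39, also with pairs averaged), with 75th percentile centring (-0.70), without numbers 3 and 4 (-0.99) and within numbers 1 and 2 (-1.36) and 5 and 6 (-0.61). Over those settings 19.4% to 33.7% of tested features passed as lower. L17 turned to 0.20 with no normalisation (also with pairs averaged) and to 0.40 within numbers 3 and 4. L29 turned to -1.31 with median centring (also with pairs averaged) and to -0.63 with 75th percentile centring. It passed as higher where the 3 sets entered as a fixed block (0.34) and within numbers 5 and 6 (0.66). In those fits 30.3% and 22.2% of tested features passed as higher. The replicate block on sample numbers left all 3 calls as they were (-0.56, -0.52 and 0.34) and called 1209 features against 1225. The number of called features moved to 2013 with no normalisation, 515 with pairs averaged and 671 with pairs as a random block. The difference in L5 intensity (0.179) and percentile (-14.5) and in L17 percentile (-8.47) had an exact permutation p of at least 0.1 with pairs averaged, where 0.1 is the least possible. The L17 percentile difference was -10.3 to -6.21 with 1 sample left out, and its unadjusted p rose above the threshold without wild-type sample 1, 2, 5 or 6 (up to 0.0801). The cause of these changes was not tested. Values near 0 limit what the dimmest genes can show.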
